A study of Mus musculus with 12 samples.

Results

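The genes described here are 10 genes of the collectins and the lectin pathway of complement: Colec10, Colec11, Colec12, Mbl1, Mbl2, Fcna, Masp1, Masp2, C2 and C4b. They were chosen by name, and each was read from the 1 row that carries its symbol in a table of 24011 named genes. All 10 were measured in all 12 arrays. The arrays hold RNA of liver sinusoidal endothelial cells (LSECs), the fenestrated endothelium of the liver's capillaries, taken from C57BL/6J mice of 3 to 4 months with beads against CD146. The groups were mice without both stabilins (DKO), mice without stabilin-1 (Stab1KO), mice without stabilin-2 (Stab2KO) and wild-type mice (WT), with 3 arrays each. Each array is a pool of 3 mice, and the labels call each pool a biological replicate. The labels do not give the sex of the mice, the way in which the alleles were made, or whether the genotypes were littermates, so colony and genotype cannot be told apart.

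Collectins are secreted or membrane lectins with a collagen-like stalk and a head that binds sugars on microbes and damaged cells. Ficolins have the same plan with a fibrinogen-like head. Once bound, mannose-binding lectins, ficolins and the collectins CL-L1 and CL-K1 activate the serine proteases of the MASP family, which cleave C4 and C2 and so start the complement cascade. The liver is the main source of these proteins in blood, with different cell types making different components. Stab1 and Stab2 encode the scavenger receptors that were deleted, and the design sets LSECs without either receptor, or without both, beside those of WT mice.

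Values are log2 expression values on the authors' RMA scale, and a difference of 1 is a change of 2-fold. They cannot be compared between genes, and no calls of presence were used, so how much of a low value is background is not known. Stab1 lay between 4.98 and 5.44 in DKO and between 5.16 and 5.45 in Stab1KO, against 12.46 to 12.62 in WT, and Stab2 between 5.46 and 7.60 in DKO and 6.26 and 7.40 in Stab2KO, against 12.99 to 13.09 in WT, so both targets followed the labels. The mean of 14 LSEC marker genes other than the stabilins lay between 12.50 and 12.74 in DKO, 12.84 and 12.87 in Stab1KO, and 12.75 and 12.81 in Stab2KO, against 12.84 to 12.86 in WT. DKO replicate 3 stood apart: its correlations with the other arrays across genes were 0.956 to 0.968, and the mean of 13 neutrophil genes was 11.48 there, against 6.26 and 6.70 in the other DKO arrays and 5.39 to 5.78 in WT. Results on DKO were therefore also computed without it. Where groups are said below not to overlap, the share of all genes that separate likewise was not counted.

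With the Colec12 window left out, RefSeq promoter windows of GRCm38.p6 were used for 5 of the 10 genes. Those of Colec11, which like Colec10 fell in every knockout, and of Mbl1 and Mbl2, which were called in no comparison, are shown to set the genes beside each other. Each runs from 250 bases before to 50 bases after an annotated start. In the Colec11 window, at chr12:28623281-28623580 on the minus strand, capitals mark the E-box CANNTG, which reads the same on both strands. In the windows of Mbl1, at chr14:41151206-41151505, and Mbl2, at chr19:30232678-30232977, both on the plus strand, capitals mark the longest run that they share.
Colec11: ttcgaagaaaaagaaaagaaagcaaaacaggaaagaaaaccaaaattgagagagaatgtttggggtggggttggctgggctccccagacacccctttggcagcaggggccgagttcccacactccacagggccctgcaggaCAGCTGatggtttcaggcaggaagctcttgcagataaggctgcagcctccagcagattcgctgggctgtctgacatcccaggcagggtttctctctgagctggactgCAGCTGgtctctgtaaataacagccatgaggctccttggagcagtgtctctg
Mbl1: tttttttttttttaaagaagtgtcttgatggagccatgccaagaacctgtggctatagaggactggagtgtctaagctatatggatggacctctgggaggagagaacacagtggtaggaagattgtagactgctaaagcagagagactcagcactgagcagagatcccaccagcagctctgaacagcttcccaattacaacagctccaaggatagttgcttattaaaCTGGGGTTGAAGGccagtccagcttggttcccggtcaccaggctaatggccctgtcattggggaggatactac
Mbl2: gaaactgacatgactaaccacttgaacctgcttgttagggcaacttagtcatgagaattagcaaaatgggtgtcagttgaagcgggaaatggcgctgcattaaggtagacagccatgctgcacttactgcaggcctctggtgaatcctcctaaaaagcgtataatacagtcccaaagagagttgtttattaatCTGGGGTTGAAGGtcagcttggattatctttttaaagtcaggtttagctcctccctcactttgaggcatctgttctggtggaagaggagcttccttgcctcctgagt
Colec11 held 2 E-boxes, and 72.3% of 32851 windows hold at least 1. GATAA, searched on both strands, occurred in the Colec11 and Mbl2 windows and in 25.4% of all windows. TATAAA, on both strands, was in none of the 5 windows used and in 13.6% of all. The run shared by Mbl1 and Mbl2 was 13 bases long, starts 23 bases before the annotated start of Mbl1 and 57 before that of Mbl2, and occurred in 3 of the 32851 windows. These matches describe the letters only.

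Colec10 and Colec11, which encode the soluble collectins CL-L1 and CL-K1, were lower in all 3 knockouts, and they were the members that changed most. Colec10 measured 5.30, 4.93 and 4.96 log2 in DKO, 5.73, 5.93 and 5.51 in Stab1KO, and 6.85, 6.93 and 5.49 in Stab2KO, against 8.69, 9.26 and 8.59 in WT. Every knockout array lay below every WT array, and among the Stab2KO arrays replicate 3 was low, just below the lowest Stab1KO array. Colec10 differed from WT by -3.79 ± 0.33 log2 in DKO (SE of the model), by -3.12 ± 0.33 in Stab1KO and by -2.43 ± 0.33 in Stab2KO, that is 13.8-fold, 8.72-fold and 5.37-fold lower. The adjusted p-values of limma's moderated test were 0.000313, 0.00215 and 0.0128. The call in Stab2KO was lost without WT replicate 2, with -2.22 log2 and an adjusted p of 0.0726.

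Colec11 measured 5.81, 5.54 and 5.56 log2 in DKO, 6.27, 6.21 and 6.05 in Stab1KO, and 7.09, 6.88 and 6.58 in Stab2KO, against 8.57, 9.13 and 8.62 in WT. The 4 genotypes did not overlap in this gene, though how many of all genes separate likewise was not counted. It fell by 3.14 ± 0.17 log2 in DKO, by 2.60 ± 0.17 in Stab1KO and by 1.93 ± 0.17 in Stab2KO, or 8.79-fold, 6.06-fold and 3.80-fold (limma adjusted p = 7.64e-06, 6.64e-05 and 0.00109). With DKO replicate 3 left out, the DKO differences were -3.10 for Colec11 and -3.74 for Colec10, and both kept their calls. Exact permutation of 3 against 3 arrays cannot give a p below 0.1, so the calls rest on the model's pooled spread.

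**Figure D1:**
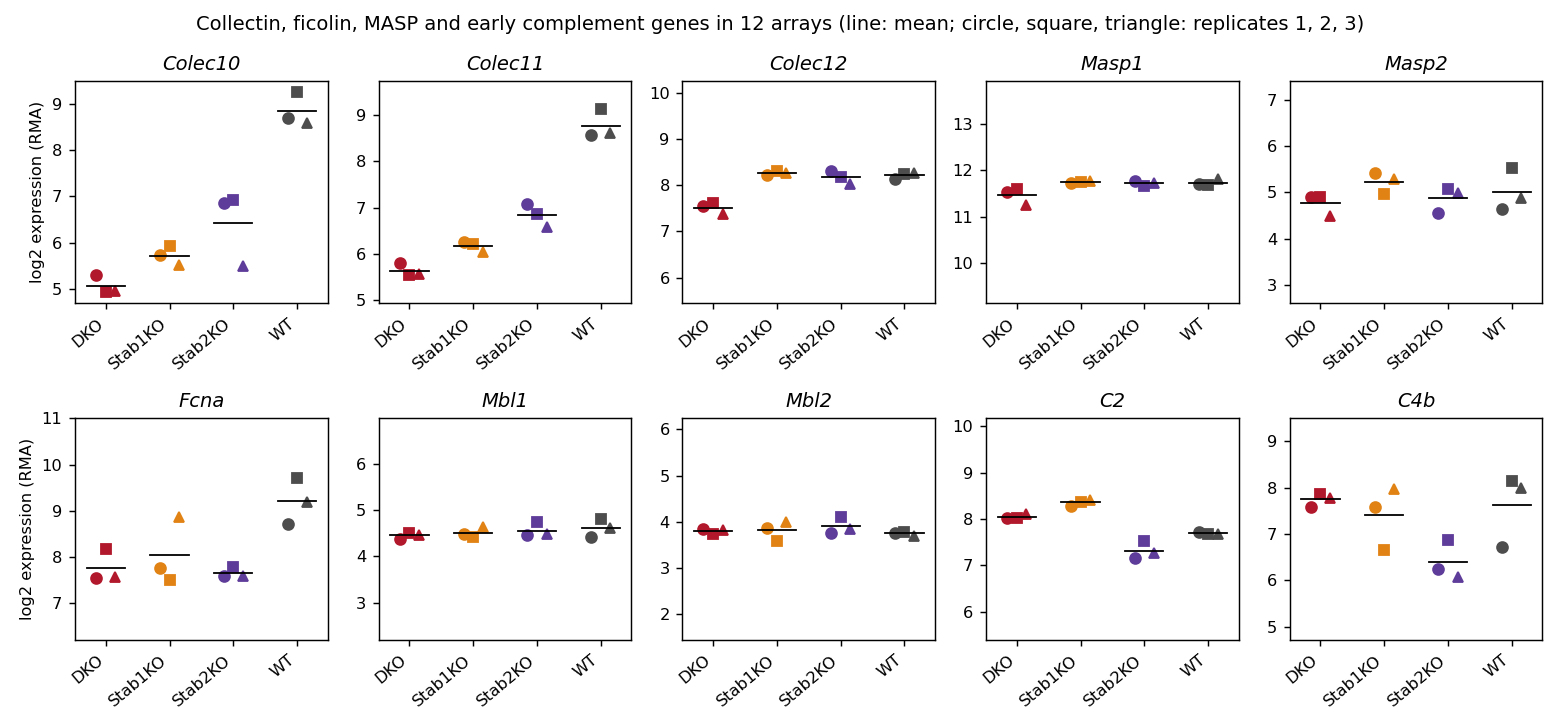
Log2 expression (vertical axis, with the same span in each panel) of the 10 genes in DKO, Stab1KO, Stab2KO and WT arrays (horizontal axis), with a point per array and a line at the group mean. Colec10 and Colec11 are below WT in every knockout array, Colec12 is low in DKO, and C2 is high in Stab1KO and DKO.

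The order of the group means was the same in both genes, with DKO lowest, then Stab1KO, then Stab2KO, then WT. Between neighbouring knockouts in that order, no difference passed limma's test over all genes. For Colec11 the model's 95% intervals stayed negative, at -0.91 to -0.17 for DKO against Stab1KO and -1.04 to -0.30 for Stab1KO against Stab2KO. For Colec10 they reached positive values, at -1.40 to 0.08 and -1.44 to 0.04. DKO against Stab1KO gave -0.66 ± 0.33 log2 for Colec10 and -0.54 ± 0.17 for Colec11 (limma adjusted p = 0.363 and 0.144). Stab1KO against Stab2KO gave -0.70 ± 0.33 for Colec10 and -0.67 ± 0.17 for Colec11 (limma adjusted p = 0.740 and 0.343). DKO against Stab2KO was called for Colec11, at -1.21 ± 0.17 (limma adjusted p = 0.0103), and it missed the threshold for Colec10, at -1.36 ± 0.33 (limma adjusted p = 0.0527). The Colec11 call was lost without Stab2KO replicate 2 (-1.19, adjusted p = 0.0521), and Colec10 was called without Stab2KO replicate 3 (-1.83, adjusted p = 0.00474).

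In DKO the difference from WT was smaller in size than the sum of both single-knockout differences. How much of the low DKO values is background is not known, so a floor under these falls cannot be told apart from a departure from additivity. The departure from additivity, taken as the effect of Stab1 loss without Stab2 minus its effect with Stab2, was 1.39 ± 0.24 log2 for Colec11 and 1.76 ± 0.47 for Colec10. Neither passed limma's test over all genes (adjusted p = 0.0715 and 0.161), and Colec11 passed without DKO replicate 3 (1.43, adjusted p = 0.0493).

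Stellate cells store vitamin A around the sinusoids and are a known source of both collectins in mice. Every knockout mean of 19 stellate markers lay below WT, except Nes in Stab2KO (8.56 log2, against 8.30 in WT). Not every marker kept the order of Colec10 and Colec11 among the knockouts, and Rgs5 had means of 9.52 in DKO and 8.55 in Stab1KO. The mean of 19 stellate genes lay between 6.15 and 6.40 log2 in DKO, 6.19 and 6.43 in Stab1KO, and 6.62 and 6.73 in Stab2KO, against 7.61 to 8.18 in WT. Of the 19, 12 were called lower in DKO, 10 in Stab1KO and 9 in Stab2KO, and 0 were called higher, where 1.80%, 0.308% and 0.296% of all genes were called. The 19 had median differences of -1.16, -1.59 and -1.11 log2 beside medians of -0.02, 0.01 and 0.01 over all genes. Their departures from additivity had a median of 1.04 log2, beside -0.04 over all genes. Of the 19, 1 was called, where 0.05% of all genes were. At an unadjusted p under 0.05 by limma there were 16 of the 19, against 12.5% of all genes. The lowest of all values in the arrays was 2.94 and the lowest stellate value was 3.62, and how much of such values is background is not known. Their part in the falls of Colec10 and Colec11 was not tested, and in bulk samples fewer cells of a type and less RNA per cell cannot be told apart.

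**Figure D2:**
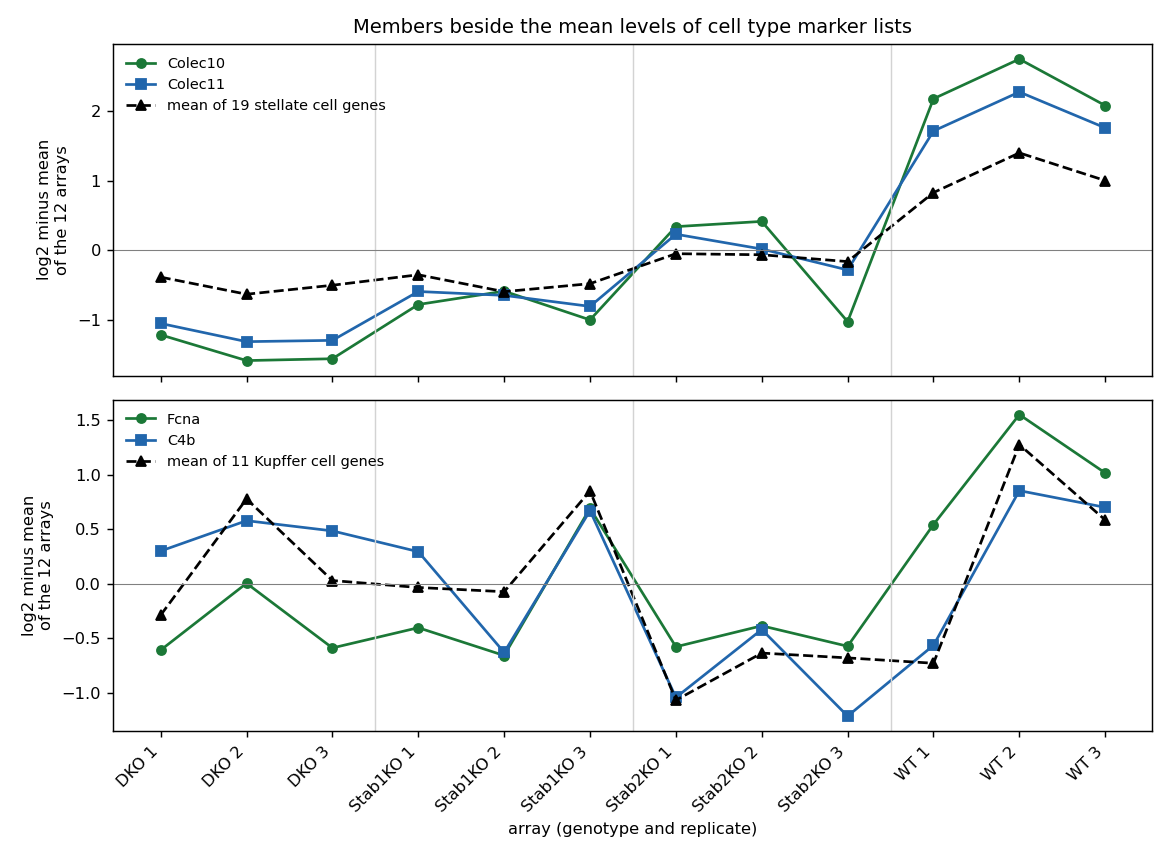
Log2 values of each array minus the gene's or list's mean over the 12 arrays (vertical axis), for Colec10 and Colec11 with the mean of 19 stellate cell genes (upper panel) and for Fcna and C4b with the mean of 11 Kupffer cell genes (lower panel), by array (horizontal axis). The collectins and the stellate mean are highest in the 3 WT arrays, and within each genotype Fcna is highest in the array where the Kupffer mean is highest.

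The genes with the most similar pattern were sought by the mean absolute difference over the 12 arrays after each gene was centred on its own mean. Nearest to Colec10, whose own mean deviation was 1.29 log2, were Bmp5 (0.23), Lrat (0.24) and Colec11 (0.30). Nearest to Colec11, with a mean deviation of 1.00 log2, were Tlcd4 (0.19), Lrat (0.23) and Bmp10 (0.23). Bmp5 encodes a bone morphogenetic protein and Lrat the enzyme that esterifies retinol for storage, and both are on the stellate list. The nearest measured genes on the chromosome were not called in any knockout: Gm5215 and Mal2 beside Colec10 on chromosome 15, and Allc and Rps7 beside Colec11 on chromosome 12. Of these 4, Mal2 had the largest difference, 1.02 log2 in DKO (limma adjusted p = 0.116).

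Colec12, also called CL-P1 or SRCL, is a membrane collectin of endothelium that takes up oxidised lipoprotein and microbes, and it was lower in DKO. It measured 7.55, 7.61 and 7.39 log2 in DKO, 8.21, 8.31 and 8.27 in Stab1KO, and 8.30, 8.19 and 8.03 in Stab2KO, against 8.13, 8.25 and 8.27 in WT. All DKO arrays lay below all the others, which overlapped among themselves. It fell by 0.70 ± 0.09 log2 in DKO, or 1.62-fold (limma adjusted p = 0.00428), and by 0.64 without DKO replicate 3 (limma adjusted p = 0.00918). The differences from WT were 0.05 in Stab1KO (95% interval of the model -0.14 to 0.25) and -0.04 in Stab2KO (-0.24 to 0.16).

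DKO was also below each single knockout in Colec12, by -0.75 ± 0.09 log2 against Stab1KO and -0.66 ± 0.09 against Stab2KO (limma adjusted p = 0.00744 and 0.0103). The call against Stab2KO was lost without Stab2KO replicate 2 (-0.65, adjusted p = 0.0521). The test of the difference itself, the departure from additivity, was -0.71 ± 0.13 and missed the threshold (limma adjusted p = 0.0734), though it passed without Stab2KO replicate 3 (-0.78, adjusted p = 0.0439). The LSEC marker mean given above was also lowest in the DKO arrays, and its part in the Colec12 fall was not tested. The nearest measured neighbours of Colec12, Cetn1 and Thoc1, were not called in any knockout.

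Fcna encodes ficolin A, which in mice is made by macrophages of the liver and spleen and activates the lectin pathway. It measured 7.56, 8.17 and 7.58 log2 in DKO, 7.76, 7.51 and 8.86 in Stab1KO, and 7.59, 7.78 and 7.59 in Stab2KO, against 8.71, 9.72 and 9.18 in WT. The DKO and Stab2KO arrays lay below all WT arrays, while Stab1KO replicate 3 lay within the WT range. The differences were -1.43 ± 0.34 in DKO, -1.16 ± 0.34 in Stab1KO and -1.55 ± 0.34 in Stab2KO, and none passed (limma adjusted p = 0.0629, 0.737 and 0.145). With Stab1KO replicate 3 left out, the comparisons of DKO and of Stab2KO with WT passed (adjusted p = 0.0270 and 0.0439).

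Markers of Kupffer cells, the resident macrophages of the liver, were set beside Fcna. The mean of 11 measured Kupffer genes lay between 8.19 and 9.25 log2 in DKO, 8.40 and 9.33 in Stab1KO, and 7.41 and 7.84 in Stab2KO, against 7.75 to 9.75 in WT. None of the 11 was called against WT in any knockout, with 3, 0 and 8 at an unadjusted p under 0.05 in DKO, Stab1KO and Stab2KO, where 16.7%, 3.91% and 7.62% of all genes lay under it. Within each genotype the array with the highest Kupffer mean also had the highest Fcna value: replicate 2 of DKO, replicate 3 of Stab1KO, replicate 2 of Stab2KO and replicate 2 of WT. WT replicate 1 had the lowest Kupffer mean and the lowest Fcna value of its group. The group means of both ran in the same order, with WT highest, then Stab1KO, DKO and Stab2KO. The Kupffer means of WT, Stab1KO and DKO were close, however (8.85, 8.72 and 8.65), beside a range of 7.75 to 9.75 among the WT arrays. Across genotypes, Fcna did not follow the Kupffer mean of the array throughout. WT replicate 1, with a Kupffer mean of 7.75, had Fcna at 8.71, and Stab2KO arrays, at 7.41 to 7.84, had 7.59 to 7.78. DKO replicate 2, at 9.25, had 8.17. The lowest value of a Kupffer gene was 5.74, and the part of these cells in the Fcna values was not tested.

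Mbl1 and Mbl2 encode mannose-binding lectins A and C, which hepatocytes secrete in mice. Mbl1 measured 4.39, 4.50 and 4.47 log2 in DKO, 4.47, 4.42 and 4.64 in Stab1KO, and 4.45, 4.73 and 4.47 in Stab2KO, against 4.42, 4.81 and 4.61 in WT. Mbl2 measured 3.84, 3.74 and 3.82 in DKO, 3.86, 3.58 and 3.99 in Stab1KO, and 3.76, 4.11 and 3.85 in Stab2KO, against 3.76, 3.79 and 3.70 in WT. In Mbl1 the groups overlapped throughout. The largest difference from WT was -0.16 for Mbl1 in DKO (95% interval -0.41 to 0.09) and 0.16 for Mbl2 in Stab2KO (-0.10 to 0.41). Both genes lay below the median of all genes in every array (5.12 to 5.13). Since values cannot be compared between genes, this does not show low expression of Mbl1 or Mbl2. How much of their values is background is not known, so these intervals do not show that expression was unchanged. Hepatocyte genes gave a mean of 7.94 to 8.94 in DKO, 7.65 to 8.97 in Stab1KO and 7.93 to 8.53 in Stab2KO, against 7.76 to 8.75 in WT.

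Masp1 encodes the protease MASP-1 and, by alternative splicing, MASP-3 and an inhibitory form, which the single row of the table does not separate. It measured 11.54, 11.59 and 11.25 log2 in DKO, 11.72, 11.75 and 11.76 in Stab1KO, and 11.77, 11.67 and 11.72 in Stab2KO, against 11.70, 11.68 and 11.82 in WT. All DKO arrays lay below all the others, most of all replicate 3. The difference in DKO was -0.27 ± 0.09 and did not pass (limma adjusted p = 0.169), and it was -0.17 without replicate 3. In Stab1KO and Stab2KO the differences were 0.01 and -0.01, with 95% intervals of -0.19 to 0.22 and -0.21 to 0.19.

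Masp2 encodes MASP-2, the protease that cleaves both C4 and C2, with a short splice form that lacks the protease part. It measured 4.91, 4.91 and 4.48 log2 in DKO, 5.41, 4.97 and 5.29 in Stab1KO, and 4.57, 5.07 and 4.99 in Stab2KO, against 4.65, 5.53 and 4.87 in WT. The groups overlapped, and the differences from WT of -0.25, 0.21 and -0.15 did not pass (limma adjusted p = 0.640, 1.00 and 0.949). The 95% interval in DKO ran from -0.76 to 0.25.

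C2 encodes the protease that forms the C3 convertase together with cleaved C4, and it rose in Stab1KO and lay lowest in Stab2KO. It measured 8.03, 8.02 and 8.10 log2 in DKO, 8.29, 8.37 and 8.42 in Stab1KO, and 7.16, 7.52 and 7.26 in Stab2KO, against 7.71, 7.68 and 7.68 in WT. The 4 genotypes did not overlap, with Stab1KO highest, then DKO, WT and Stab2KO. C2 rose by 0.67 ± 0.09 log2 in Stab1KO, or 1.59-fold (limma adjusted p = 0.00829). It differed by 0.36 ± 0.09 in DKO and by -0.38 ± 0.09 in Stab2KO without passing (limma adjusted p = 0.0752 and 0.202). The Stab1KO call was lost without WT replicate 2, Stab1KO replicate 2 or Stab1KO replicate 3, with 0.64 to 0.66 log2 and adjusted p of 0.0518 to 0.0577.

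C2 was also higher in DKO than in Stab2KO: DKO was 0.73 ± 0.09 log2 above Stab2KO (limma adjusted p = 0.00679). Stab1KO was 1.04 ± 0.09 above Stab2KO, or 2.06-fold (limma adjusted p = 0.000877), and this call held with each array left out in turn. The departure from additivity was 0.07 ± 0.13, with a 95% interval of -0.21 to 0.35. DKO against Stab1KO gave -0.31 ± 0.09 (limma adjusted p = 0.127).

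C4b encodes complement C4, and its near-identical copy C4a lies close by, so the split of their signals is uncertain. C4b measured 7.59, 7.87 and 7.78 log2 in DKO, 7.59, 6.66 and 7.96 in Stab1KO, and 6.25, 6.87 and 6.08 in Stab2KO, against 6.73, 8.15 and 7.99 in WT. Stab2KO and WT overlapped through WT replicate 1. That array also had the lowest WT mean of the Kupffer, hepatocyte, stellate and neutrophil lists. The WT means of the LSEC list were nearly equal (12.84 to 12.86), and the bile duct mean was highest in that array (6.20). The part of any of these cells in the C4b values was not tested. The differences were 0.12 ± 0.40 in DKO, -0.22 ± 0.40 in Stab1KO and -1.22 ± 0.40 in Stab2KO, and none passed (limma adjusted p = 0.925, 1.00 and 0.456). DKO lay above Stab2KO by 1.35 ± 0.40 (limma adjusted p = 0.0932). C4a measured 3.98, 4.58 and 4.08 in DKO, 4.03, 3.87 and 3.98 in Stab1KO, and 3.95, 3.77 and 4.15 in Stab2KO, against 4.04, 3.95 and 3.78 in WT.

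**Figure D3:**
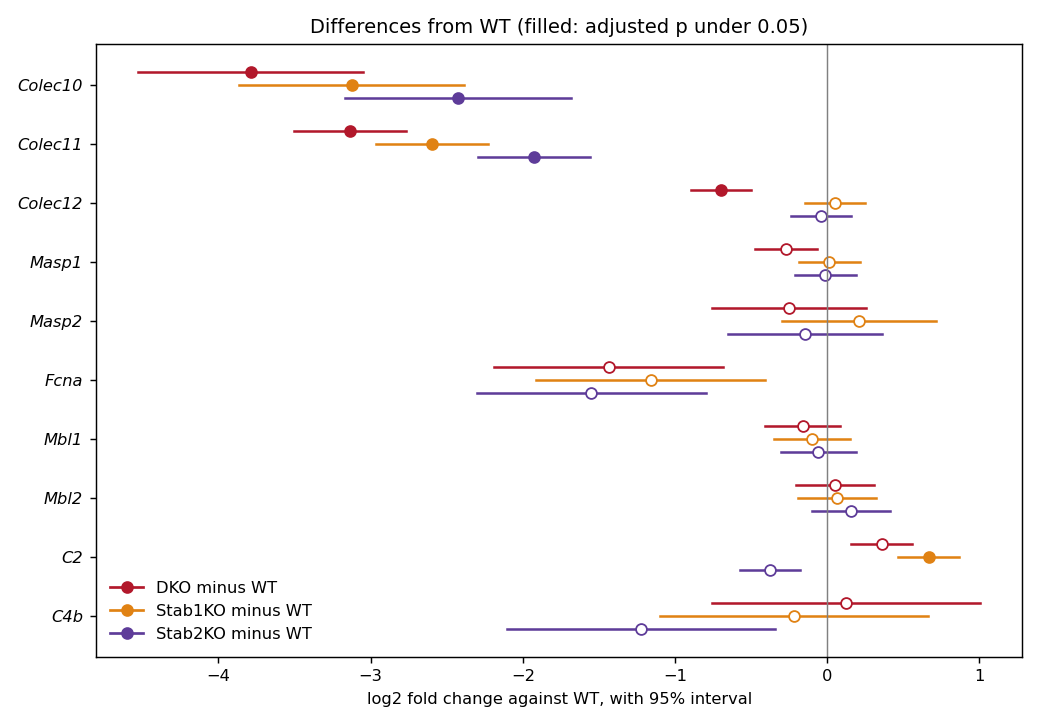
Log2 fold change against WT (horizontal axis) with the 95% interval of the model for the 10 genes (vertical axis), in DKO, Stab1KO and Stab2KO, each from 3 arrays against 3. Filled points passed an adjusted p of 0.05: Colec10 and Colec11 in all 3 genotypes, Colec12 in DKO and C2 in Stab1KO.

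C2, C4b and the alternative pathway gene Cfb lie together in the class III region of the major histocompatibility complex on mouse chromosome 17. Within 200 kb of C2, 31 other genes were measured. Of these 0 were called in DKO or Stab1KO against WT by limma, and 1 was called in Stab2KO, the meiotic recombination gene Msh5, at 2.63 ± 0.28 log2 (limma adjusted p = 0.00443). At an unadjusted p under 0.05 there were 4 of the 31 in DKO, 2 in Stab1KO and 9 in Stab2KO, where 16.7%, 3.91% and 7.62% of all genes lay under it. In DKO against Stab2KO, Cfb rose by 0.72 ± 0.14, Msh5 fell by 2.79 ± 0.28 and Ddah2, a dimethylarginine hydrolase gene, fell by 0.63 ± 0.08 (limma adjusted p = 0.0264, 0.00183 and 0.00790). In Stab1KO against Stab2KO, Msh5 was called (-2.84 ± 0.28, limma adjusted p = 0.00268) and Cfb was not, at 0.72 ± 0.14 (limma adjusted p = 0.122). Around C4b, 24 other genes were measured within 200 kb, and C2 was the one called in Stab1KO against WT.

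**Figure D4:**
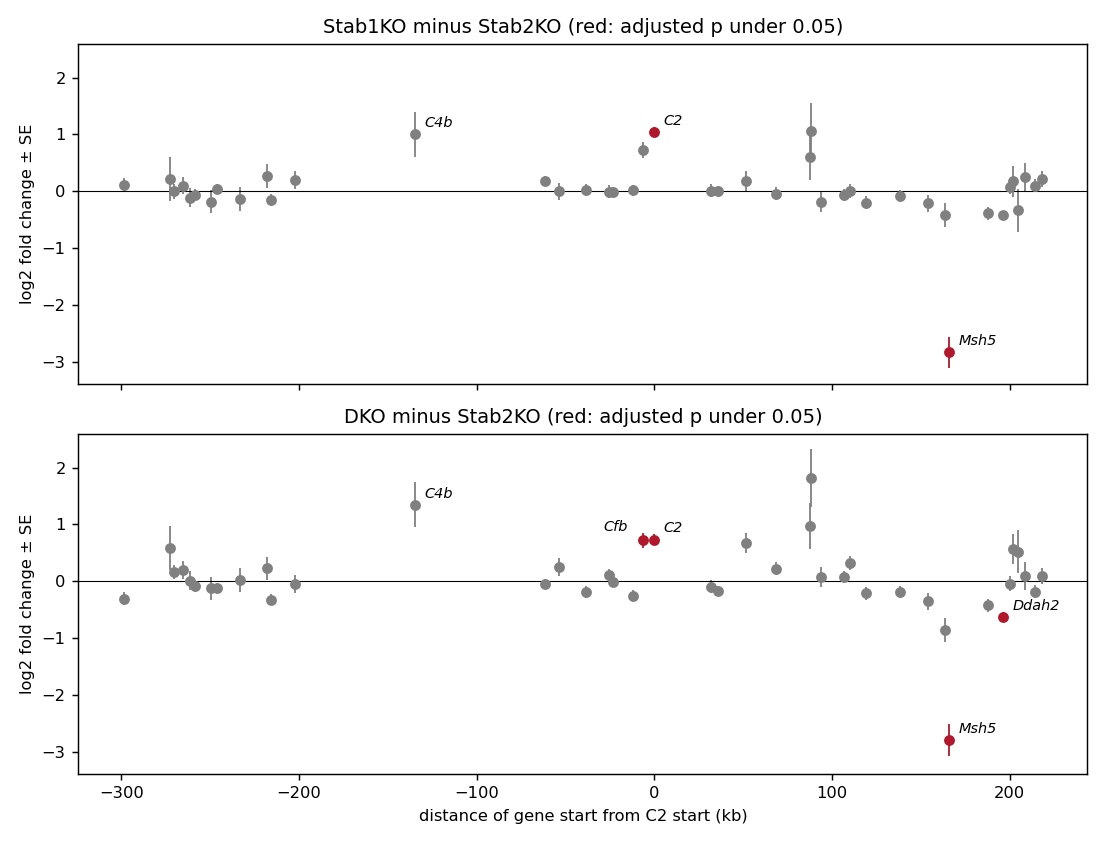
Log2 fold change with the model's SE (vertical axis) of the genes within 200 kb of C2 or C4b against the distance of each gene's start from the start of C2 in kb (horizontal axis), for Stab1KO minus Stab2KO (upper panel) and DKO minus Stab2KO (lower panel). Red points passed an adjusted p of 0.05: C2 and Msh5 in both panels, with Cfb and Ddah2 in the lower one.

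Counted over the 10 genes, 3 were called in DKO against WT, all lower (Colec10, Colec11 and Colec12), where 1.80% of the 24011 genes passed. In Stab1KO against WT 3 were called, Colec10 and Colec11 lower and C2 higher, where 0.308% passed. In Stab2KO against WT 2 were called, both lower (Colec10 and Colec11), where 0.296% passed. The 3 comparisons share the WT arrays. DKO against Stab1KO called 1 gene (Colec12, background 0.945%), DKO against Stab2KO called 3 (Colec11 and Colec12 lower, C2 higher, background 3.42%), and Stab1KO against Stab2KO called 1 (C2, background 0.108%). The departure from additivity called 0 by limma, where 0.05% of all genes were called. At an unadjusted p under 0.05 it had 5 of the 10, against 12.5% of all genes. The median difference of the 10 genes from WT was -0.26 log2 in DKO, -0.04 in Stab1KO and -0.26 in Stab2KO.

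Of 61 other genes of complement and lectin recognition that were listed, 56 were measured, and the others were not analysed here. By limma 0 of the 56 were called against WT in any knockout, with 16, 4 and 9 at an unadjusted p under 0.05 in DKO, Stab1KO and Stab2KO, where 16.7%, 3.91% and 7.62% of all genes lay under it. Their median differences were -0.09, -0.02 and -0.11 log2. The nearest to a call were in DKO: Cpn1, a carboxypeptidase subunit that inactivates anaphylatoxins, differed by 1.38 ± 0.31, and Vtn, the terminal pathway inhibitor vitronectin, by 1.31 ± 0.29 (limma adjusted p = 0.0514 and 0.0513). Both passed when dim genes were left out (adjusted p = 0.0362 each).

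In DKO against Stab2KO, 5 of the 56 genes were called, all higher in DKO, where 3.42% of all genes were called in either direction. They were the regulators Vtn (1.65 ± 0.29 log2), Cpn1 (1.57 ± 0.31), Serping1 (0.96 ± 0.18), which encodes the C1 inhibitor, and Cfi (0.87 ± 0.21), the factor I protease that degrades C3b and C4b, beside Cfb. The adjusted p-values of limma for the 4 regulators were 0.0212, 0.0290, 0.0279 and 0.0479. For Serping1 and Cfb the DKO means (9.13 and 7.95) lay near WT (9.13 and 7.80), and the Stab2KO means were low (8.17 and 7.23). For Vtn, Cpn1 and Cfi the DKO means (8.80, 8.23 and 7.45) lay above WT (7.48, 6.84 and 6.84). Their Stab2KO means were 7.15, 6.66 and 6.58. All 5 calls were lost without Stab2KO replicate 1 (adjusted p of 0.0860 to 0.104) and without Stab2KO replicate 2 (0.0521 to 0.128). Without DKO replicate 1 all but Cfb were lost (0.0532 to 0.0895), Cfb was lost without DKO replicate 2 (0.0555), and Serping1 was lost without Stab2KO replicate 3 (0.0506). Cfi was the least firm, since it was called without DKO replicate 2 and lost without any other of the 12 arrays (0.0601 to 0.128). Bile duct genes were higher in DKO at the same time, with a mean over 6 genes of 6.80 to 7.45 in DKO, against 5.86 to 6.28 in Stab2KO, and their part in these values was not tested.

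The C1q chain gene C1qc, a macrophage product, measured 7.67, 8.90 and 7.88 log2 in DKO, 8.04, 8.17 and 9.004 in Stab1KO, and 6.75, 7.24 and 7.29 in Stab2KO, against 7.62, 9.46 and 8.90 in WT. It lay lowest in Stab2KO, as the Kupffer mean did, with a difference of -1.57 ± 0.46 (limma adjusted p = 0.375). The terminal component gene C6 gave -1.72 ± 0.48 in Stab2KO, and the complement receptor gene Vsig4, itself a Kupffer marker, -1.83 ± 0.59 (limma adjusted p = 0.328 and 0.449). C1s1, a protease gene of the classical pathway, measured 5.21, 4.77 and 5.35 in DKO, 6.03, 4.66 and 3.86 in Stab1KO, and 4.80, 5.24 and 4.39 in Stab2KO, against 5.59, 6.77 and 6.37 in WT, and did not pass in any knockout. Among membrane lectins of the sinusoid, Clec1b differed by -0.55 ± 0.16 in DKO (limma adjusted p = 0.112), and it passed without DKO replicate 1 (-0.74, adjusted p = 0.0352). Clec4f, the Kupffer cell lectin, gave -0.41 ± 0.52 in DKO and -1.31 ± 0.52 in Stab2KO. The membrane regulator genes Cd55b and Thbd gave 0.54 ± 0.28 and -0.45 ± 0.15 in DKO, and the lung collectin gene Sftpd gave 0.47 ± 0.14 (limma adjusted p = 0.362, 0.165 and 0.131).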

How the data were processed

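LSEC RNA, extracted right after isolation, was hybridised to Affymetrix arrays. The deposited log2 expression values were made by the authors with RMA, per the submitters' processing notes, which give no version. The array annotation's genome build is not given in the sources used here. Of 24973 rows, 24015 had 1 symbol in the platform annotation, 0 had several and 958 had none there. The row with the highest mean was kept per symbol, which left out 4 rows. Positions came from RefSeq GRCm38.p6 and served only to find neighbours and promoter windows.

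limma 3.58.1 in R 4.3.3 fitted 4 group means over the 12 arrays, with moderated two-sided tests and Benjamini-Hochberg adjustment over 24011 genes within each of 7 contrasts, and genes were called at an adjusted p under 0.05. The script was tested on simulated data. The number of pools limits the precision. Alternatives were a replicate block, dim genes left out (below the 40th percentile of gene means), trend and robust options, array weights, further normalization, every row and a fit of only the arrays compared, besides leaving out 1 array at a time. They were also applied to genes named after the fit, a choice made after seeing the data. Members, lists and the rule for named genes were chosen with earlier results of these data known. The rule named all members, up to 4 called genes per list or else the 2 with the largest difference, the 3 genes nearest in pattern, and chromosomal neighbours. Serping1 and Cfi were named after their values were seen.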

Additional observations from a re-analysis of the deposited data

How the results depend on the processing

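Of 1313 values of the 10 genes under the alternatives, over all 7 contrasts, 1289 kept their side of the threshold, 11 lost a call and 13 gained one. A change of sign occurred in 33, all far from a call (lowest adjusted p = 0.739). Colec10 and Colec11 in DKO and Stab1KO, Colec11 in Stab2KO and Colec12 in DKO kept their calls against WT under every alternative run. With only the arrays compared, the number of the 10 genes called was 1 in Stab2KO against WT, 0 in DKO against Stab1KO and 0 in DKO against Stab2KO, a fit with fewer samples. With array weights, 2 were called for the departure from additivity (Colec11 and Colec12). With 1 array left out, the counts ran from 1 to 3 in Stab2KO against WT, from 1 to 4 in DKO against Stab2KO and from 0 to 1 for the departure from additivity. Of the other complement genes, 0 were called in DKO against WT, but 3 with the replicate block (Sftpd, Vtn and Cpn1), 2 with dim genes left out, 2 with trend and robust options, 2 with array weights (Vtn and Cpn1 each time), and 0 to 2 with 1 array left out. In Stab2KO against WT 1 was called with trend and robust options (Serping1). The count of all genes called moved more: 432 in DKO against WT (97 with only the arrays compared, 1111 with array weights), 822 in DKO against Stab2KO (4 and 1789), 227 in DKO against Stab1KO (18 and 466) and 71 in Stab2KO against WT (29 and 148). In Stab1KO against WT 74 were called, and 46 without Stab1KO replicate 3. In Stab1KO against Stab2KO 26 were called, and 12 without Stab2KO replicate 2. The departure from additivity called 12, and 199 with array weights. Deviations of same-numbered arrays from their group means had correlations of -0.06 to 0.29, with 4 of 18 pairs over 0.1. Arrays of different numbers were not compared in this way, so whether the numbers pair the arrays is not known. The replicate block also called Colec10 in DKO against Stab2KO (adjusted p = 0.0373) and changed no other call among the 10 genes. The cause of these changes was not tested.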

Other observations

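Several complement and lectin genes owed their DKO mean to 1 array. Fcnb, which encodes ficolin B of granulocytes, measured 3.67, 3.78 and 7.10 log2 in DKO, against 3.74, 3.89 and 3.72 in WT. Itgam, the integrin chain of complement receptor 3 on myeloid cells, measured 7.32, 7.38 and 12.17 in DKO, against 5.92, 6.73 and 7.09 in WT. Neither passed in DKO (limma adjusted p = 0.483 and 0.277). The high value came from DKO replicate 3, the array with the high neutrophil genes. Cfp, which encodes properdin, was highest in the same array, with 7.94, 8.75 and 10.18 in DKO, against 7.42, 9.33 and 8.45 in WT.

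Hc, which encodes complement C5, had its highest values in Stab1KO, at 8.02, 7.88 and 8.23 log2, against 7.46, 7.48 and 7.10 in WT. All Stab1KO arrays lay above all WT arrays, but the difference of 0.70 ± 0.21 did not pass (limma adjusted p = 0.842).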
